A study of Mus musculus with 5 samples.

Results

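Histone genes were examined in total RNA of injured mouse retinas. The members were chosen by gene symbol alone, as every symbol of the count table beginning H2ac, H2bc, H3c, H4c or H1f followed by a number, which took 69 of 25655 symbols. The family was proposed with earlier results of the Sorbinil against DMSO contrast known, so the differences between these groups are given as a description and no test over the members was made. Of the 69 members, 58 encode core histones (17 H2A, 17 H2B, 12 H3 and 12 H4 genes) and 11 are H1f genes, which encode linker histones.

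Retinas were taken 7 days after the left optic nerve was crushed (ONC), from wildtype C57BL/6 mice given DMSO or the aldose reductase inhibitor Sorbinil at 10 mg/kg. By the methods of the study, mice of both sexes were 8 to 10 weeks old at ONC, injections were intraperitoneal and daily from the day before ONC, and each retina was from a separate mouse. The groups are 3 DMSO retinas (1, 2 and 3) and 2 Sorbinil retinas (1 and 3), all with a crushed nerve, so no uninjured retina enters any value. Each sample is the whole retina, and in such bulk samples fewer cells of a type and less RNA per cell cannot be told apart.

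Histones package DNA. Pairs of H2A, H2B, H3 and H4 form the spool of the nucleosome, and H1 binds where DNA enters and leaves it. Most genes for these proteins lie in clusters and are transcribed in S phase, when new DNA needs packaging. Their mRNAs end in a stem-loop instead of a poly(A) tail, and the stem-loop is held by its binding protein SLBP and cut by a machinery that pairs with U7 RNA. A separate group of histone genes makes polyadenylated mRNA in cells that no longer divide, and H1f0 is the best known linker histone among them. Most neurons of an adult retina have left the cell cycle.

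By GENCODE vM39 on GRCm39, 48 core genes and the 6 genes H1f1 to H1f6 lay in the large histone cluster of chromosome 13, and 10 core genes lay in a cluster of chromosome 3. The other 5 H1f genes lay outside both clusters, with H1f0 and H1f7 on chromosome 15, H1f8 and H1f10 on chromosome 6 and H1f9 on chromosome 11. Of the 69 gene models, 60 had 1 block of exon.

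The stem-loop was searched for in the 150 bases after each stop codon, as a perfect stem of 6 base pairs that opens with GG around a loop of 4 bases with T at loop bases 1 and 3. The loop was first required to begin TT, and it was loosened after the sequences downstream of H4c1 and H3c8 were read. It was found for 62 of 69 members (89.9%) and for 19 of the 21701 other protein-coding genes (0.0876%), of which 7 are themselves histone genes whose symbols are not among the members (H2ac25, H2ax, H2bc26, H2bc27, H2bw2, H3f4 and H4c16). Members were searched after the stop codon of each annotated coding transcript, and other genes only after that of the longest coding sequence. The shares thus come from unlike searches. These 62 members held 8 different sequences. They are shown here with the stem in capitals and the loop in lower case, read 5′ to 3′ on the strand of the gene.
H1f2, GRCm39 chr13:23923495-23923510, plus strand: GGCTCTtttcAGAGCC
H3c6, GRCm39 chr13:23746077-23746092, minus strand: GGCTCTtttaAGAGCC
H2ac20, GRCm39 chr3:96127734-96127749, minus strand: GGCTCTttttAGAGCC
H3c8, GRCm39 chr13:23720059-23720074, plus strand: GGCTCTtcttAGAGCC
H4c3, GRCm39 chr13:23882072-23882087, minus strand: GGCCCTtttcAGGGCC
H4c14, GRCm39 chr3:96170255-96170270, minus strand: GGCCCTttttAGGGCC
H4c1, GRCm39 chr13:23944783-23944798, minus strand: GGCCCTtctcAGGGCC
H4c11, GRCm39 chr13:21919607-21919622, plus strand: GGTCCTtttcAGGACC

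The stem split the family by class. All 12 H4 genes had a stem opening GGCCCT (10 genes) or GGTCCT (2 genes), and all 50 other members with a stem-loop opened GGCTCT. The sequence of H1f2 was shared by 39 members and that of H3c6 by 9, while 7 members had the sequence of H4c3. The stem began 21 to 58 bases after the stop codon, with a median of 30 bases. No such stem-loop was found for H1f0, H1f7, H1f8, H1f9 and H1f10, the linker genes outside the clusters, or for the core genes H2bc21 and H2ac22. Past H1f10 and H1f0 the polyadenylation letters AATAAA stood 348 and 1077 bases after the stop codon. The letters do not tell the kinds apart. They also followed members with a stem-loop, as for H4c1 (125 bases) and H2ac8 (171 bases), and were not found within 2000 bases for H2bc21.

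The gene models set which reads could be counted. The stem-loop lay inside the annotated exons of 44 members and outside them for 18, and for 11 members the exons were exactly the coding length. Whether the annotation used for the counts has the same ends is not given in the sources used here, so levels per kilobase (kb) of exon are approximate. H1f3 and H2bc6 are examples of the opposite kind, with 7425 and 6150 exon bases around coding parts of 666 and 381 bases.

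Promoters were read from RefSeq (GRCm38.p6, 250 bases before to 50 after the start), where 62 of 69 members matched. Each motif was counted on either strand, so its direction is not given by these counts. CCAAT stood in the promoters of all 17 H2A, 14 H2B and 10 H3 genes matched. It stood in those of 7 of 10 H1 genes and 3 of 11 H4 genes, against 41.1% of 27025 genes. ATTTGCAT, the octamer bound by Oct-1, stood in the promoters of 7 of 14 H2B genes and 6 of 17 H2A genes (35.3%). It stood in those of no H1, H3 or H4 gene, and of 1.97% of all genes. TATAAA stood in those of 8 of 11 H4, 11 of 17 H2A, 7 of 14 H2B, 4 of 10 H3 and 4 of 10 H1 genes, against 15.7% of all genes. H2A and H2B genes often share a start region, as 12 pairs were neighbours read away from each other, 11 of them 175 to 305 bases apart and 1 (H2ac6 and H2bc4) with overlapping ends. The 250 bases before the start of H2bc8, which lies 175 bases from H2ac8, show the arrangement, with CCAAT (once on the minus strand, as ATTGG), the octamer and TATAAA in capitals. The motifs began 178, 150, 59 and 43 bases before the start and did not overlap.
H2bc8, RefSeq GRCm38.p6, strand of the gene: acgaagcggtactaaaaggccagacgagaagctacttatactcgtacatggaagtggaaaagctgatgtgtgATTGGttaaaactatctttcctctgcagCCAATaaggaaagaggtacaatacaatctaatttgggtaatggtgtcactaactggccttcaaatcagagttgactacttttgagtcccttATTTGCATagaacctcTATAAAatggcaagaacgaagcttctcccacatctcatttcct

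Counts on genes totalled 56096541 to 90288552 per retina. Sorbinil retina 1 stood apart from the other 4. Its summed rod markers were at 146000 CPM (counts brought to a common library size after TMM normalization) against 75890 to 105800 in the others, and its summed Müller glia markers were 2652 CPM against 6871 to 8337. Of the 14992 genes tested, 17.4% were at least 2-fold below the DMSO mean in this retina and 0.914% in Sorbinil retina 3. Rod markers were present in every retina, and none of the 15 listed was at 0. Values are therefore given retina by retina or without Sorbinil retina 1.

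Histone genes took 0.248%, 0.341% and 0.305% of all gene counts in DMSO retinas 1, 2 and 3, and 0.351% and 0.324% in Sorbinil retinas 1 and 3. The share was lowest in DMSO retina 1, and the Sorbinil values overlapped those of DMSO. Summed over all 69 members the level was 2312, 3301 and 3083 CPM with DMSO and 4106 and 3033 CPM with Sorbinil.

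Core histone genes did not separate the groups. Their summed level was 1845, 2659 and 2489 CPM in DMSO retinas 1, 2 and 3 (mean 2331 ± 429.5, SD, n = 3) and 3341 and 2335 CPM in Sorbinil retinas 1 and 3 (mean 2838 ± 711.5, SD, n = 2). Sorbinil retina 1 was the highest of the 5 and Sorbinil retina 3 fell between DMSO retinas 1 and 3. The log2 ratio of the means was 0.28 with both Sorbinil retinas and 0.0028 without Sorbinil retina 1. Leaving out H4c3, the member with most counts, gave 0.14.

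**Figure D1:**
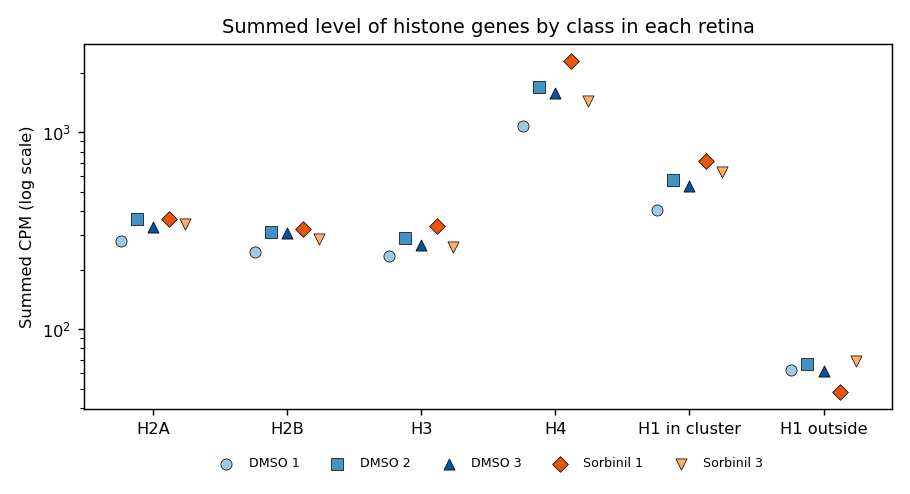
Summed CPM of the histone genes of each class (log scale) in each of the 5 retinas, with 1 marker per retina and the H1 genes split by position. H1 genes of the cluster were higher in both Sorbinil retinas (716.8 and 629.1 CPM) than in the DMSO retinas (405.1 to 576.0 CPM), while the other classes overlapped.

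After TMM scaling, the summed level of the linker histone genes was higher in both Sorbinil retinas than in any DMSO retina. The same held for 12.8% of all single genes tested. The 11 H1f genes summed to 467.0, 642.3 and 594.8 CPM with DMSO (mean 568.0 ± 90.7, SD, n = 3) and to 764.7 and 698.0 CPM with Sorbinil (mean 731.4 ± 47.17, SD, n = 2). The log2 ratio of the means was 0.36, and 0.30 without Sorbinil retina 1. As a share of all gene counts, without TMM scaling, the groups overlapped. The H1f genes took 0.05%, 0.0663% and 0.0589% with DMSO and 0.0653% and 0.0746% in Sorbinil retinas 1 and 3. Most of the sum is H1f2 and H1f4, and of the 6 genes in the cluster H1f1 overlapped between the groups and H1f5 was lower with Sorbinil. The 6 H1f genes in the cluster alone summed to 405.1, 576.0 and 533.4 CPM with DMSO and to 716.8 and 629.1 CPM with Sorbinil. Their shares of all gene counts also lay apart, at 0.0434%, 0.0595% and 0.0528% with DMSO and 0.0612% and 0.0672% with Sorbinil. The 5 outside summed to 61.88, 66.39 and 61.43 CPM with DMSO and to 47.88 and 68.90 CPM with Sorbinil, so here the Sorbinil retinas lay on either side of the DMSO retinas.

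Set against the core genes of the same retina, the linker genes made up a nearly constant level with DMSO. For each 100 CPM of core histone genes there were 25.3, 24.2 and 23.9 CPM of H1f genes in DMSO retinas 1, 2 and 3, and 22.9 and 29.9 CPM in Sorbinil retinas 1 and 3. The Sorbinil retinas were the lowest and the highest of the 5, so the ratio did not separate the groups. The ratio for H1f2, the linker gene with most counts, was 9.75, 9.94 and 9.81 with DMSO and 10.1 and 11.9 with Sorbinil. The ratios of H1f4, H1f1 and H1f0 did not separate the groups. For H1f4 it was 8.14, 7.85 and 7.62 with DMSO and 6.76 and 10.8 with Sorbinil. H1f1 gave 2.37, 2.15 and 2.40 against 3.04 and 2.25, and H1f0 gave 2.94, 2.21 and 2.23 against 1.36 and 2.62.

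Of the 69 members, 63 passed the filter on low counts, 55 core genes and 8 H1f genes. The other 6 were the testis genes H2ac1, H2bc1, H1f7 and H1f9, the oocyte gene H1f8, and H4c17. H1f7 and H1f9 were at 0 in every retina, and the others had at most 9 counts in any retina.

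Over the 55 core genes tested, the fold changes of Sorbinil over DMSO on the log2 scale had a median of 0.08, beside -0.01 over all genes tested, with 35 genes higher and 20 lower. Scaled by library size alone, the median of all genes moved to -0.11 and that of the core genes to -0.02. Retina by retina, the median of the core genes against the DMSO mean was -0.21, 0.21 and 0.03 in DMSO retinas 1, 2 and 3, and 0.17 and 0.06 in Sorbinil retinas 1 and 3. The Sorbinil retinas thus lay within the range of the DMSO retinas. DMSO retina 1 was the lowest DMSO retina for 46 of the 63 histone genes tested (73%), beside 37.5% of all genes tested.

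Over the 8 H1f genes tested the median log2 fold change was 0.40, with 5 higher and 3 lower. It was 0.42 for the 6 in the cluster and -0.27 for H1f0 and H1f10 outside. Against the DMSO mean, the median of the 6 was -0.27, 0.21 and 0.09 in the DMSO retinas, 0.55 in Sorbinil retina 1 and 0.32 in Sorbinil retina 3. Both Sorbinil retinas were above the 3 DMSO retinas. For H1f0 and H1f10 the median was -0.93 in Sorbinil retina 1 and 0.14 in Sorbinil retina 3, against -0.14 to 0.09 with DMSO, so their lower level came from 1 retina.

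At the threshold of the study, an unadjusted p-value of at most 0.1 with at least a 2-fold change, 3 of the 63 tested members passed (4.76%), 1 lower and 2 higher with Sorbinil. The background was 1.71% of all genes tested in either direction, 1.35% lower and 0.36% higher. All 3 were near-identical copies, described further on, and none passed when copies were summed. None of the H1f genes reached a 2-fold change. Another 5 members, H1f2, H1f3, H1f4, H3c1 and H2ac20, met the p-value alone. No gene of the table had an adjusted p-value (Benjamini-Hochberg) under 0.05 by edgeR's quasi-likelihood test, where the smallest was 0.758. Unadjusted, the p-value was under 0.05 for 751 genes. The DESeq2 Wald test gave 21 genes with an adjusted p-value under 0.05, 1 of them a histone gene, H2bc24.

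The groups did not overlap for 8 members that were higher with Sorbinil (12.7%) and 3 that were lower (4.76%), beside 12.8% and 10.5% of all genes tested. Among the H1f genes these were 4 higher (H1f2, H1f3, H1f4 and H1f6) and 1 lower (H1f5) of 8, and among the core genes 4 higher and 2 lower of 55. With so few members and the family chosen on this contrast, nothing is read from these shares. The separation of H1f3 and H1f4 depended on the scaling, as given below.

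**Figure D2:**
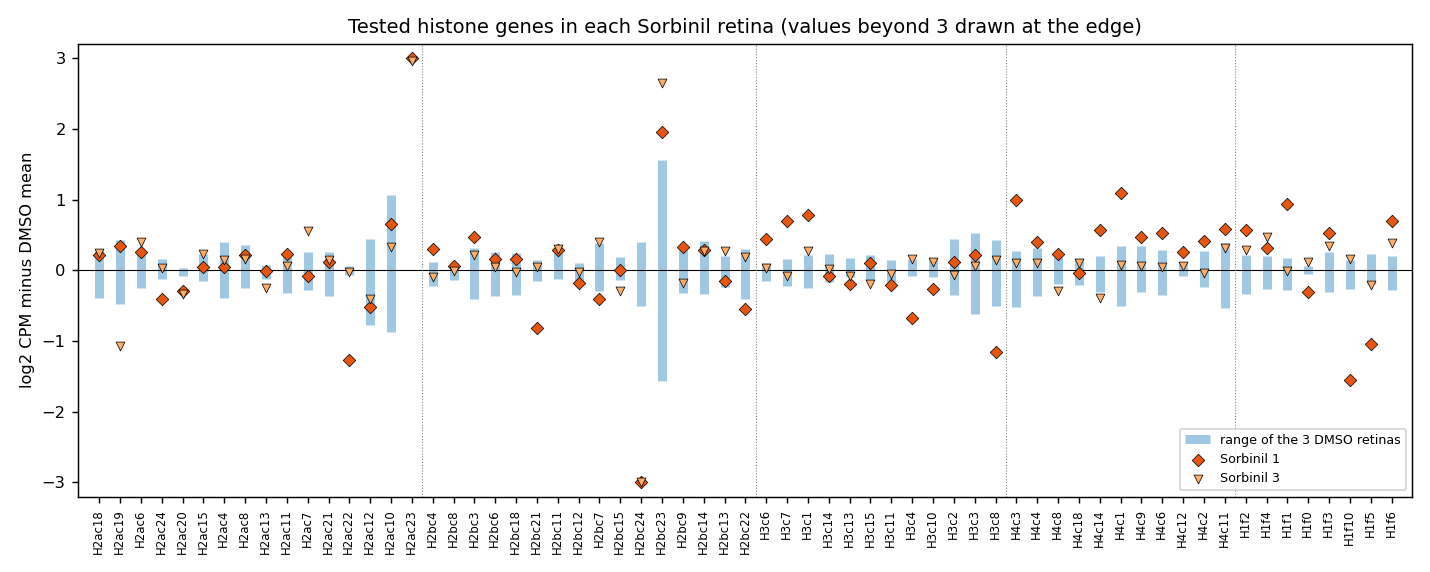
Log2 CPM (prior count 2) minus the mean of the DMSO retinas for the 63 histone genes tested, in Sorbinil retinas 1 and 3 (markers), with the range of the 3 DMSO retinas as bars and values beyond 3 drawn at the edge. H1f2, H1f3, H1f4 and H1f6 have both markers above the bar, while H1f10 (-1.55 and 0.15) and H4c3 (1.00 and 0.10) differ mostly in Sorbinil retina 1.

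H1f2 encodes a somatic linker histone. Its level was 179.9, 264.2 and 244.2 CPM in DMSO retinas 1, 2 and 3, and 336.7 and 277.0 CPM in Sorbinil retinas 1 and 3. Both Sorbinil retinas were higher than every DMSO retina. The log2 fold change was 0.42 ± 0.21 (SE), and 0.28 without Sorbinil retina 1.

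H1f4, a somatic linker gene of the same cluster, was at 150.1, 208.7 and 189.7 CPM with DMSO and at 225.9 and 251.7 CPM with Sorbinil. The groups did not overlap, and here Sorbinil retina 3 was the higher. Set against total counts alone, without TMM scaling, the groups overlapped. Sorbinil retina 1 (11876 of 61577775 counts) was then below DMSO retina 2 (16685 of 77411333). The log2 fold change was 0.39 ± 0.18 (SE), and 0.47 without Sorbinil retina 1. Its model overlaps that of H2bc6 on the same strand, so reads there cannot be assigned to 1 gene with certainty, and H2bc6 itself had a log2 fold change of 0.09 ± 0.21 (SE).

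H1f3 stood at 28.68, 42.37 and 36.77 CPM with DMSO and at 50.97 and 45.20 CPM with Sorbinil, again without overlap. Its log2 fold change was 0.42 ± 0.19 (SE), and 0.34 without Sorbinil retina 1. Against total counts alone the groups overlapped for H1f3 too. Sorbinil retina 1 (2679 of 61577775 counts) was just below DMSO retina 2 (3387 of 77411333). H1f1 was at 43.76, 57.06 and 59.64 CPM with DMSO and at 101.6 and 52.49 CPM with Sorbinil. Only Sorbinil retina 1 was high for H1f1, and the log2 fold change of 0.53 ± 0.30 (SE) became -0.01 without it.

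H1f5 was the 1 linker gene of the cluster that was lower. It stood at 2.55, 3.45 and 2.88 CPM with DMSO and at 1.41 and 2.53 CPM with Sorbinil. Sorbinil retina 3 was just under the lowest DMSO retina, and the log2 fold change was -0.58 ± 0.34 (SE), or -0.21 without Sorbinil retina 1. H1f6, known from the testis, had only 7 to 10 counts in any retina, and its log2 fold change was 0.66 ± 0.45 (SE).

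The 2 linker genes outside the clusters with counts to compare had no stem-loop by the search above. H1f0, the linker histone of differentiated cells, was at 54.17, 58.77 and 55.58 CPM with DMSO and at 45.51 and 61.13 CPM with Sorbinil. The Sorbinil retinas were the lowest and the highest, with a log2 fold change of -0.08 ± 0.16 (SE) and of 0.13 without Sorbinil retina 1. H1f10 was at 7.67, 7.54 and 5.74 CPM with DMSO and at 2.34 and 7.71 CPM with Sorbinil. It was low in Sorbinil retina 1 alone, and the log2 fold change of -0.47 ± 0.50 (SE) became 0.15 without that retina.

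H4 genes held the largest part of the core histone counts. They summed to 1082, 1693 and 1581 CPM with DMSO (mean 1452 ± 325.3, SD, n = 3) and to 2317 and 1443 CPM with Sorbinil (mean 1880 ± 618.0, SD, n = 2). Sorbinil retina 1 was the highest, and Sorbinil retina 3 lay between DMSO retinas 1 and 3. Of 11 tested, 10 were higher and 1 lower by the fit, with a median log2 fold change of 0.23, but no H4 gene had groups apart. Against the DMSO mean the median was 0.47 in Sorbinil retina 1 and 0.06 in Sorbinil retina 3, and 0.27 in DMSO retina 2.

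H4c3 alone held 42.7% to 57.3% of the H4 level in each retina and had the highest level of the family per kb of exon, 997.3 CPM. Its counts were 44635, 63770 and 44000 with DMSO and 69768 and 48214 with Sorbinil. In CPM it was at 461.6, 797.8 and 791.9 with DMSO and at 1327 and 710.3 with Sorbinil. Sorbinil retina 1 was high, Sorbinil retina 3 was within the DMSO range, and the log2 fold change of 0.58 ± 0.36 (SE) became 0.07 without Sorbinil retina 1.

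The next H4 genes by counts differed less. H4c4 was at 181.0, 290.9 and 242.2 CPM with DMSO and at 307.3 and 250.1 CPM with Sorbinil (log2 fold change 0.23 ± 0.23, SE). H4c8 was at 185.1, 241.0 and 214.0 CPM with DMSO and at 248.8 and 172.9 CPM with Sorbinil (-0.02 ± 0.21). In H4c8 the Sorbinil retinas were the highest and the lowest, and leaving out Sorbinil retina 1 gave -0.29. H4c18 (0.02 ± 0.15) and H4c14 (0.15 ± 0.31, and -0.40 without Sorbinil retina 1) overlapped too, and the other 6 H4 genes tested had log2 fold changes from 0.16 (H4c12) to 0.63 (H4c1), the latter 0.05 without Sorbinil retina 1.

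H2A genes summed to 281.1, 364.7 and 332.6 CPM with DMSO and to 364.1 and 341.9 CPM with Sorbinil, within the range of DMSO. Of 16 tested, 10 were higher and 6 lower, with a median log2 fold change of 0.12. H2ac18, of the chromosome 3 cluster, held 50.2% to 63.8% of the class. It stood at 141.2, 226.4 and 197.8 CPM with DMSO and at 214.8 and 218.3 CPM with Sorbinil (log2 fold change 0.20 ± 0.22, SE).

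H2ac20, in the same cluster, was, beside H2bc24, the tested core gene whose groups lay apart with Sorbinil lower. It was at 11.66, 10.78 and 11.68 CPM with DMSO and at 9.30 and 9.03 CPM with Sorbinil. Both Sorbinil retinas were lower, with a log2 fold change of -0.31 ± 0.14 (SE), and of -0.32 without Sorbinil retina 1. H2ac6 (0.32 ± 0.18), H2ac24 (-0.18 ± 0.20) and H2ac12 (-0.59 ± 0.54, at 10 to 29 counts) overlapped between the groups. The other 9 H2A genes tested ranged from -0.53 (H2ac22, and -0.01 without Sorbinil retina 1) to 0.28 (H2ac10).

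H2B genes summed to 246.4, 311.3 and 307.3 CPM with DMSO and to 325.2 and 287.0 CPM with Sorbinil, with 11 of 16 tested higher, 5 lower and a median log2 fold change of 0.06. H2bc4 was the gene with most counts, at 96.09, 119.1 and 121.5 CPM with DMSO and at 138.1 and 104.9 CPM with Sorbinil (0.11 ± 0.18, SE). H2bc8, whose promoter is shown above, had the highest H2B level per kb of exon (97.94 CPM). It stood at 54.80, 62.93 and 62.90 CPM with DMSO and at 62.44 and 59.56 CPM with Sorbinil (0.02 ± 0.12, SE), so that both Sorbinil retinas were within the range of DMSO.

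H2bc3 (0.32 ± 0.23) and H2bc18 (0.05 ± 0.21) also overlapped between the groups. The other 9 H2B genes tested ranged from -0.32 (H2bc21, and 0.05 without Sorbinil retina 1) to 0.29 (H2bc11). H2bc21 encodes an H2B variant known from olfactory neurons and is 1 of the 4 tested members with no stem-loop, beside H1f0, H1f10 and H2ac22. All 4 were lower by the fit, with a median log2 fold change of -0.40, against 0.11 for the 59 with a stem-loop. Their summed level, with the 3 untested genes of the kind, was 75.39, 81.35 and 73.59 CPM with DMSO, 55.47 CPM in Sorbinil retina 1 and 82.84 CPM in Sorbinil retina 3. The 2 Sorbinil retinas thus lay below and above all DMSO retinas. Against the DMSO mean, the median of the 4 was -1.04 in Sorbinil retina 1 and 0.09 in Sorbinil retina 3.

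H3 genes summed to 235.1, 289.9 and 267.9 CPM with DMSO and to 334.9 and 263.1 CPM with Sorbinil. Of 12 tested, 4 were higher and 8 lower, with a median log2 fold change of -0.04. H3c1 was the H3 gene with groups apart. It was at 16.99, 23.37 and 20.64 CPM with DMSO and at 34.72 and 24.44 CPM with Sorbinil, and Sorbinil retina 3 was only just above DMSO retina 2. Its log2 fold change was 0.54 ± 0.21 (SE), and 0.28 without Sorbinil retina 1.

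The H3 genes with most counts were highest in Sorbinil retina 1. H3c6 was at 68.93, 82.58 and 79.58 CPM with DMSO and at 104.2 and 78.22 CPM with Sorbinil (0.24 ± 0.17, SE). H3c7 was at 55.49, 68.08 and 72.44 CPM with DMSO and at 105.0 and 61.29 CPM with Sorbinil (0.35 ± 0.25). Without Sorbinil retina 1 these log2 fold changes were 0.03 for H3c6 and -0.08 for H3c7. H3c14 (-0.04 ± 0.16) and H3c13 (-0.14 ± 0.14) of the chromosome 3 cluster overlapped, and the other 7 H3 genes ranged from -0.42 (H3c8, and 0.13 without Sorbinil retina 1) to 0.08 (H3c3).

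By position, the median log2 fold change was 0.11 over the 45 core genes tested in the chromosome 13 cluster and -0.04 over the 10 of chromosome 3. Their summed levels were 1491 to 2201 CPM with DMSO and 2869 and 1940 CPM with Sorbinil on chromosome 13, and 353.7 to 458.1 CPM with DMSO and 472.3 and 395.0 CPM with Sorbinil on chromosome 3. In both clusters Sorbinil retina 1 was above all DMSO retinas and Sorbinil retina 3 was within their range.

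In Sorbinil retina 1 the median of all genes tested was 0.02 against the DMSO mean, but the genes at least 2-fold away were mostly low. There, 5 of the 63 histone genes tested (7.94%) were at least 2-fold below the DMSO mean, beside 17.4% of all genes tested. Another 4 (6.35%) were at least 2-fold above, beside 1.76%. Of the near-identical pairs described further on, H2bc24 is among the 5 lower, and H2bc23 and H2ac23 are among the 4 higher. In Sorbinil retina 3 there were 2 lower and 2 higher (3.17% each), beside 0.914% and 0.78% of all genes tested. Of these 4, all belong to the near-identical pairs, with H2bc24 and H2ac19 lower and H2bc23 and H2ac23 higher.

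**Figure D3:**
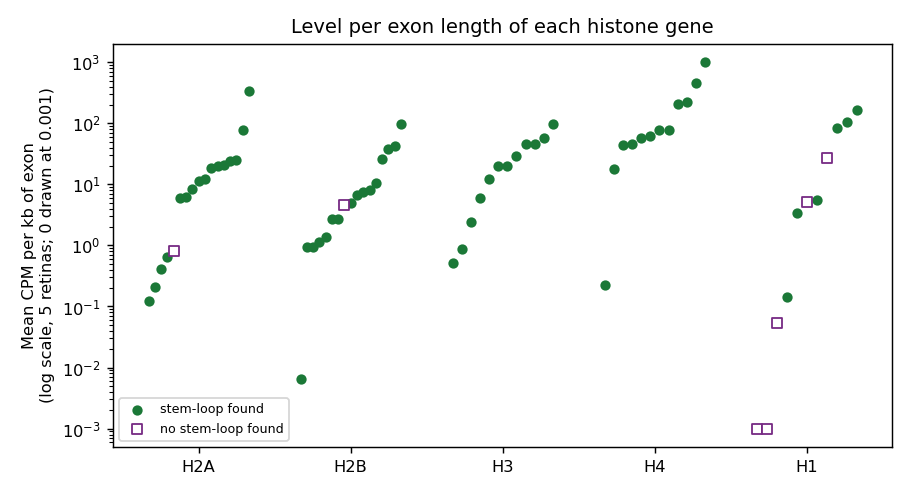
Mean CPM per kb of exon over the 5 retinas (log scale, genes at 0 drawn at 0.001) for the 69 histone genes by class, with filled circles for genes with a stem-loop and open squares for the 7 without. H4c3 is highest at 997.3 CPM per kb, and H1f0 is the highest gene without a stem-loop at 26.78 CPM per kb.

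Levels per kb of exon spread widely within each class. After H4c3 the highest means over the 5 retinas were 451.8 CPM per kb for H4c8, 340.8 for H2ac18, 223.5 for H4c4, 205.8 for H4c18 and 166.9 for H1f2. Among linker genes H1f2 was followed by H1f4 (106.3), H1f1 (84.9), H1f0 (26.78), H1f3 (5.50), H1f10 (5.10) and H1f5 (3.45). The first 3 of these carry a stem-loop and H1f0 does not.

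Histone genes are hard to tell apart by short reads. Of the 69 members, 27 shared at least 50% of their exonic 75-base words with other members, and 12 shared none. The median share was 70.5% for H2A, 52.4% for H3, 41.2% for H2B, 28.1% for H4 and 0% for H1. How the authors counted reads that fit more than 1 gene is not given in the sources used here.

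The 4 closest pairs, which share over 80% of these words in both directions, are H2ac18 and H2ac19 on chromosome 3, and H2bc23 and H2bc24, H2ac23 and H2ac24, and H4c17 and H4c18 in the chromosome 13 cluster. The last 3 pairs mirror each other in 1 stretch, in which H2bc23 (minus strand), H2ac23 and H4c17 lie at chr13:21990782-21996317 and H4c18, H2ac24 and H2bc24 at chr13:22015937-22021700. All 3 members called at the threshold of the study were from this stretch.

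H2bc24 had 226, 351 and 198 counts in DMSO retinas 1, 2 and 3, and 0 and 19 in Sorbinil retinas 1 and 3. Its copy H2bc23 had 190, 16 and 36 counts with DMSO and 136 and 286 with Sorbinil. H2bc24 was lower and H2bc23 higher with Sorbinil, with log2 fold changes of -4.51 ± 1.01 and 1.84 ± 0.85 (SE). Summed, the pair had 416, 367 and 234 counts with DMSO and 136 and 305 with Sorbinil, or 4.30, 4.59 and 4.21 CPM and 2.59 and 4.49 CPM.

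The sum overlapped between the groups, with a log2 fold change of -0.30 ± 0.29 (SE). The share of the pair assigned to H2bc23 was 45.7%, 4.36% and 15.4% in the DMSO retinas and 100% and 93.8% in the Sorbinil retinas. It was higher in both Sorbinil retinas, and it ranged from 4.36% to 45.7% among the DMSO retinas alone.

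H2ac23 was at 0 in all 3 DMSO retinas and had 16 and 13 counts in Sorbinil retinas 1 and 3, at least 6.07-fold higher against a floor of 3 counts in each DMSO retina. This was 3.19% and 1.51% of the counts of the pair H2ac23 and H2ac24. The pair together was at 11.83, 13.72 and 11.27 CPM with DMSO and at 9.53 and 12.70 CPM with Sorbinil, overlapping, with a log2 fold change of -0.14 ± 0.19 (SE). Median changes of the H2A and core genes were the same with H2ac23 set to its bound. They could not differ, as the fitted value and the bound both lie above these medians.

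**Figure D4:**
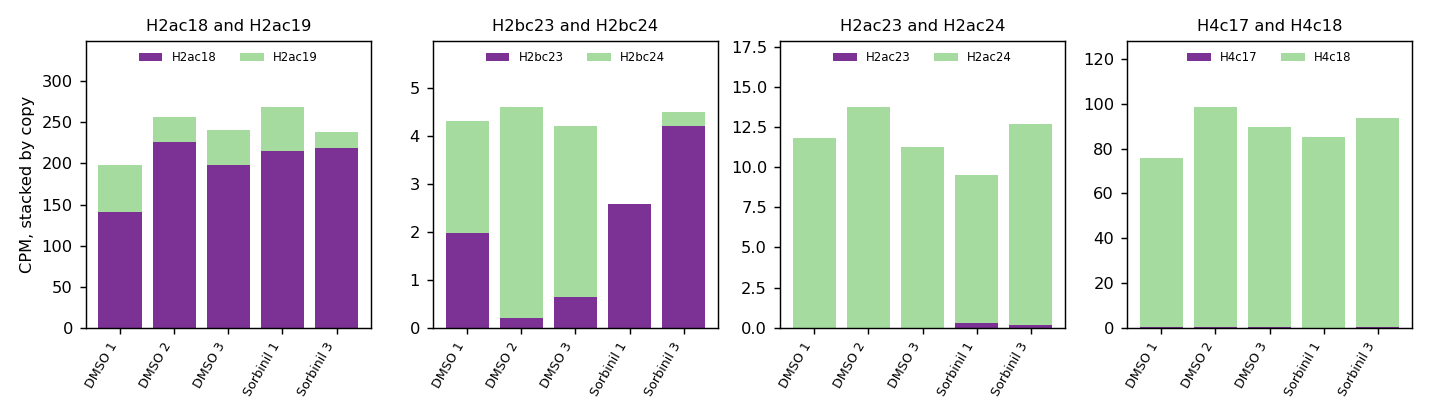
CPM of the 4 pairs of near-identical histone genes in each retina, stacked by copy. For H2bc23 and H2bc24 the height is 4.21 to 4.59 CPM in 4 retinas and 2.59 CPM in Sorbinil retina 1, while the part assigned to H2bc23 goes from 4.36% in DMSO retina 2 to 100% in Sorbinil retina 1.

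H2ac19, all of whose 75-base words are found in H2ac18, also varied against its copy. Its counts were 5507, 2418 and 2422 in the DMSO retinas and 2811 and 1365 in the Sorbinil retinas, while H2ac18 held 71.3%, 88.2%, 81.9%, 80.1% and 91.6% of the pair in the same order. Together they were at 198.1, 256.7 and 241.4 CPM with DMSO and at 268.3 and 238.4 CPM with Sorbinil, with a log2 fold change of 0.13 ± 0.16 (SE). H4c17 held at most 0.18% of its pair with H4c18, which had a log2 fold change of 0.02 ± 0.15 (SE).

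Histone genes whose symbols fall outside the rule were given by a list of 14 genes, of which 13 were in the table and 12 were tested. The list was drawn up by symbol and is not limited to variants without a stem-loop, as H2ax has one. Whether any of these symbols is another name of a clustered gene was not checked. None was called, 6 were higher and 6 lower, and the median log2 fold change was 0.06. H3f3b and H3f3a encode H3.3, which is placed into chromatin outside S phase. H3f3b was at 530.1, 578.3 and 697.7 CPM with DMSO and at 821.8 and 693.1 CPM with Sorbinil (0.33 ± 0.18, SE, and 0.21 without Sorbinil retina 1).

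H3f3a was at 422.1, 479.6 and 604.2 CPM with DMSO and at 696.8 and 476.5 CPM with Sorbinil (0.22 ± 0.24, SE, and -0.06 without Sorbinil retina 1). For both genes Sorbinil retina 1 was highest and DMSO retina 1 lowest. H2aw, an H2A gene of another site, had a log2 fold change of -0.12 ± 0.14 (SE).

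The mRNAs of these genes are cut and bound by a machinery of their own. Of 28 genes of histone mRNA 3' end processing tested (29 listed), none was called, 19 were higher and 9 lower, and the median log2 fold change was 0.07. Slbp, the stem-loop binding protein, named for its role and outside the naming rule, was at 11.48, 11.55 and 13.46 CPM with DMSO and at 11.24 and 12.61 CPM with Sorbinil. The groups overlapped (-0.03 ± 0.16, SE). The genes of the list with most CPM were Cstf2t (0.08 ± 0.11), Upf1 (0.10 ± 0.11) and Sympk (-0.15 ± 0.13).

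Histone chaperones, which carry histones to and from DNA, gave a median of 0.05 over 22 genes with none called, 14 higher and 8 lower. Anp32e, a chaperone that removes H2A.Z, had a log2 fold change of 0.19 ± 0.21 (SE), Nap1l1 one of 0.30 ± 0.17 and Rbbp4 one of 0.01 ± 0.19. Without Sorbinil retina 1 these were -0.09, 0.13 and -0.20.

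Genes of S phase and proliferation, the phase in which clustered histone genes are transcribed, had a median log2 fold change of -0.01 over 32 tested of 39 listed, with 15 higher and 17 lower. Their summed level was 258.0, 272.6 and 273.2 CPM with DMSO and 329.1 and 263.4 CPM with Sorbinil, highest in Sorbinil retina 1 as for the core histone genes. Pcna, the sliding clamp of DNA polymerase, was at 70.06, 73.65 and 80.12 CPM with DMSO and at 87.40 and 68.87 CPM with Sorbinil. The groups overlapped for Pcna (0.07 ± 0.15, SE).

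Pola1, a DNA polymerase subunit, was at 30.18, 37.05 and 43.88 CPM with DMSO and at 74.75 and 41.96 CPM with Sorbinil. It was high in Sorbinil retina 1 alone, and the log2 fold change of 0.66 ± 0.28 (SE) became 0.19 without that retina. Rrm1, of ribonucleotide reductase, had a log2 fold change of -0.0026 ± 0.11. Of the 32 genes of this list tested, 1 was called higher and 1 lower, beside 0.36% and 1.35% of all genes tested. Both were at low counts. Mcm10, a replication factor, had 37, 37 and 11 counts with DMSO and 77 and 28 with Sorbinil, and its log2 fold change of 1.40 ± 0.64 (SE) became 0.23 without Sorbinil retina 1. Cdk1, the kinase that starts mitosis, had 24, 26 and 19 counts with DMSO and 8 and 9 with Sorbinil, with -1.09 ± 0.41 (SE) for both retinas and -1.17 without Sorbinil retina 1. Of the 29 small RNA genes listed as a check on RNA without a poly(A) tail, 0 matched a symbol of the table.

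Markers of rods, Müller glia and inner retinal neurons stood furthest from the DMSO mean in Sorbinil retina 1. The median of 15 rod markers against the DMSO mean was 0.52 in Sorbinil retina 1 and -0.32 in Sorbinil retina 3. The summed rod level was 88980 to 105800 CPM with DMSO and 146000 and 75890 CPM with Sorbinil. Sorbinil retina 1 was the highest here and in the core histone and H4 sums. The lowest differed, as it was Sorbinil retina 3 for rods and DMSO retina 1 for the core histone and H4 sums. For the 12 Müller glia markers the medians in Sorbinil retinas 1 and 3 were -1.46 and -0.03, and for the 18 of inner retinal neurons -1.30 and 0.04.

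By their median, vascular markers were below the DMSO mean in both Sorbinil retinas, and microglial markers mainly in Sorbinil retina 1. For the 18 markers of endothelium and pericytes the medians were -1.94 and -0.62. All 18 were lower by the fit and 8 were called lower, beside 1.35% of all genes tested. Their summed level was 1693 to 1761 CPM with DMSO and 1637 and 1272 CPM with Sorbinil, of which Vtn alone was 1115 to 1381 CPM with DMSO and 1450 and 793.1 CPM with Sorbinil. Without Vtn, left out after its values were seen, the sum was 379.8 to 578.3 CPM with DMSO and 187.6 and 479.1 CPM with Sorbinil. For the 15 of microglia the medians were -0.90 and -0.12, all 15 were lower by the fit and none was called, with summed levels of 177.2 to 264.4 CPM with DMSO and 119.4 and 197.7 CPM with Sorbinil, the latter within the DMSO range. Summed levels of inner neurons were 2048 to 2313 CPM with DMSO and 1039 and 2337 CPM with Sorbinil. None of these markers was at 0 in all retinas. Mitochondrial genes took 1.94% to 2.66% of counts with DMSO and 3.70% and 4.05% with Sorbinil. The part of cell makeup in the histone values was not tested.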

How the data were processed

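Total RNA of injured whole retinas was sequenced from 3 DMSO and 2 Sorbinil mice. Sorbinil replicate 2 was not analysed here. By the methods of the study, retinas were prepared in triplicate, and the authors dropped 1 Sorbinil replicate after a principal component analysis. The Sorbinil group of 2 is thus what remained after a choice made on the reads themselves. In CLC Genomics Workbench the authors removed adaptors and aligned reads at default settings to GRCm39 (mm39), and the deposited values are raw total counts per gene symbol. The annotation, the treatment of reads that fit more than 1 gene and the use of strand in counting are not given in the sources used here. The labels and the paper name different total RNA kits. Columns were assigned to retinas by the sample name in the labels, and 0 value columns were left out. With DMSO the totals were 90288552, 77411333 and 56096541 counts, and with Sorbinil 61577775 and 63496682. No 2 retinas agreed within sampling noise, as chi-square divided by its degrees of freedom was 25.6 or more. Reads carry no molecular identifiers, so counts give a lower limit of the error.

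The tools were edgeR 4.0.16 and limma 3.58.1 under R 4.3.3. The whole table passed filterByExpr (groups as given, minimum count 10) and TMM scaling and was fitted with glmQLFit and glmQLFTest with no other term. CPM used TMM-scaled library sizes and log2 CPM a prior count of 2. Values are log2 fold changes with the SE of the fit, p-values were adjusted over all 14992 genes tested by Benjamini-Hochberg, and genes were called at the threshold of the study. Members and lists were chosen with earlier results of these data known. Named are every tested H1f gene, the 5 core genes of each class with most CPM, every called member, the 2 lowest and 2 highest log2 fold changes and, of the other lists, called genes and the 3 with most CPM. The other lists hold histone genes outside the rule, 3' end processing, chaperones, S phase and small RNAs. They also hold markers of rods, microglia, endothelium and pericytes, Müller glia and inner retinal neurons. Gene positions, stem-loops and 75-base words came from GRCm39 and GENCODE vM39, in which all 69 members were found. The alternatives were other scalings (DESeq2 1.42.0 size factors, upper quartile, library size only), other filters, the DESeq2 Wald test, the likelihood ratio test of edgeR, other thresholds, the replicate block, leaving out each retina and leaving out the most abundant gene of each sum. Summing near-identical copies was added after the data were seen. The quasi-likelihood, likelihood ratio and DESeq2 fits were first tested on simulated counts with known changes. The other steps had no such test.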

Additional observations from a re-analysis of the deposited data

How the results depend on the processing

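Across all genes, 257 were called (203 lower). The count was 408 (293 lower) with no filter on low counts, 148 (119 lower) with at least 10 counts in every retina, 168 (129 lower) with the unadjusted threshold at 0.05, and 0 at an adjusted p-value of at most 0.1 by edgeR's quasi-likelihood test, where unadjusted p-values were under 0.05 for 751 genes and the DESeq2 Wald test gave 21 genes at an adjusted p-value under 0.05. Leaving out 1 retina gave 164 to 2903 genes, the lowest without DMSO replicate 1 and the highest without Sorbinil replicate 3, where the lone Sorbinil retina was assumed to vary like the DMSO retinas. Of the histone genes 3 were called. The number was 1 (H2bc23) with at least 10 counts in every retina, 0 at the adjusted p-value, 0 with near-identical copies summed, and 2 to 6 with 1 retina left out. The 6 without Sorbinil replicate 3 were H1f5, H1f10, H2ac22, H2ac23, H2bc24 and H4c1. With copies summed, the pair H2bc23 and H2bc24 had a log2 fold change of -0.30, and the pair H2ac23 and H2ac24 one of -0.14. These are values of the pairs and not of H2bc23 or H2ac23, and H2ac23 was at most 3.19% of its pair. The log2 ratio of the core sums, 0.28, was 0.0028 to 0.52 with 1 retina left out, the lowest without Sorbinil replicate 1. The cause was not tested. The core median of 0.08 was -0.04 to 0.24 with 1 retina left out, the H1f median of 0.40 was 0.22 to 0.49, and the log2 ratio of the H1f sums was 0.24 to 0.46. The replicate block gave 203 calls (153 lower), 3 of them histone genes, and medians of 0.19 for core and 0.51 for H1f genes. Only replicate numbers 1 and 3 are shared, with correlations of deviations of -0.24 and -0.13, and separate mice carry them, so they were not taken to pair the retinas. Of the values of single named genes under all alternatives, 420 stayed within 1 SD of replicates, 16 moved further and 2 reversed. The 2 are the pair sums set against H2bc23 and H2ac23 alone. Reversal was counted only for the 3 called genes. Changes of sign in other named genes, as in H1f1 and H1f10 without Sorbinil replicate 1, are therefore among the 420 and 16. At 10 counts or fewer, as for H1f6, the SE was 0.45 on the log2 scale.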
